A study of Homo sapiens with 10 samples.

Results

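The histone genes of this eIF4A crosslinking experiment were taken by symbol, as every row whose name begins with HIST1H, HIST2H, HIST3H or HIST4H together with H2AFZ, H2AFV, H2AFX, H2AFY, H3F3A, H3F3B and H1F0. The rule found 80 of 39472 gene symbols and used no measured value. Of these, 73 were replication-dependent genes (6 of linker histone H1, 18 of H2A, 20 of H2B, 14 of H3 and 15 of H4), and 7 were other histone genes. FLAG-tagged eIF4A in HEK 293T cells, an established human embryonic kidney line, was crosslinked to RNA with ultraviolet light (254 nm, 400 mJ/cm2) and recovered with an anti-FLAG antibody, and the bound fragments were sequenced by enhanced crosslinking and immunoprecipitation (eCLIP). All cells carried the tagged protein and were exposed for 1 h to vehicle (DMSO), to 20 nM silvestrol or to 20 nM CR-1-31-B, with 3 libraries each, and 1 library prepared from input RNA with no antibody step served as the background. The labels name neither the eIF4A paralogue, the promoter that drives it, the treatment of the input cells nor whether the line is 1 clone. They also do not say whether the numbered libraries came from separate cultures, so all p-values measure the spread between these libraries, which may be technical.

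Replication-dependent histone mRNAs are made in S phase to package newly copied DNA. They typically end in a conserved stem-loop in place of a poly(A) tail, and the stem-loop binding protein SLBP carries them through processing, translation and decay. The other 7 genes encode replacement or linker histones whose mRNAs are mostly polyadenylated. eIF4A is the RNA helicase of the cap-binding complex eIF4F and helps the small ribosomal subunit load and scan on the 5' leader. Rocaglates clamp eIF4A onto RNA, with a known preference for runs of purines (A or G).

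The stem-loop and the purine runs are the sequence features on which these 2 gene classes differ, so examples of both are shown from the GENCODE 29 models (GRCh38). The stem-loop was searched in annotated 3'UTRs as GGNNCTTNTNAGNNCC, on the transcript strand, and is in capitals.
HIST2H2BE: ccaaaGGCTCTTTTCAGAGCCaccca
HIST1H2BD: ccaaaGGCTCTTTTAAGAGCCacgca
HIST1H2BC: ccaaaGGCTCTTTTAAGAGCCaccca
H2AFX: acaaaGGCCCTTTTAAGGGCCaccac

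These sites lie in the 3'UTR, within exon 1 of each gene, at chr1:149886183-149886208 (minus strand), chr6:26158582-26158607 (plus), chr6:26123467-26123492 (minus) and chr11:119094893-119094918 (minus). The pattern was found in 32 of the 36 replication-dependent genes with an annotated 3'UTR. HIST1H4C and HIST1H1E were among those without it, and HIST1H3B has no annotated 3'UTR in the model used. These annotated 3'UTRs had a median length of 511.5 bases (44 to 3575), so many run well past a stem-loop. Among the other 7 genes only H2AFX held it, whose transcript is known to exist in a stem-loop form and a polyadenylated form. Of all 70 matched replication-dependent genes, with or without an annotated 3'UTR, 32 (45.7%) had the pattern. Over all 19488 protein-coding genes, counted the same way, 64 (0.328%) had it, and 31 of these were outside the histone genes taken here.

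The longest uninterrupted purine run of the annotated leader is in capitals below, for the leaders that carried the most counts or that passed a test.
H1F0: gagctGGGAAAAGGGAGGcagag
H2AFY: cgggcGGAGGGGGAGAGcgcgg
H2AFZ: agtatAAAGGGAGcaggg
H2AFV: gcagcGGGAGGGcgcgc
HIST1H1E: ggctcGAAttgct
HIST1H2AG: gtagtGAGttgcg

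All of these lie in exon 1, at chr22:37805236-37805258 (plus), chr5:135399188-135399209 (minus), chr4:99950291-99950308 (minus), chr7:44848004-44848020 (minus), chr6:26156356-26156368 (plus) and chr6:27133053-27133065 (plus) in the order shown. The run measured 13 bases in H1F0 and 12 in H2AFY, but 3 in HIST1H1E and in HIST1H2AG. The median longest run was 4 bases over the 32 replication-dependent genes with an annotated leader, 8 over the other 7 genes and 8 over 18461 protein-coding genes. Replication-dependent leaders were also short, with a median of 41 bases against 218 in the other 7 genes and 179 over all genes, and a shorter leader has less room for a run. The presence of a run or a stem-loop is a description of the annotated sequence and not of a binding site. The H2AFZ stretch, at bases 81 to 98 of an annotated leader of 218, also holds TATAAA, a promoter motif searched below. The start site used in these cells was not examined, so this run may lie outside the transcribed leader.

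Promoters were searched for motifs known from histone genes. In windows of 300 bases around the RefSeq start (250 before, 50 after; GRCh38.p14), searched on both strands, TATAAA was present in 40 of 60 replication-dependent genes (66.7%) against 12.0% of all windows, CCAAT in 50 (83.3%) against 35.7%, and ATTTGCAT, the octamer known from H2B promoters, in 21 (35.0%) against 1.80%. Of the 6 windows of the other histone genes, 3 held TATAAA, 5 CCAAT and 1 ATTTGCAT.

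Each library was deposited as read counts per gene in 7 classes, of which the 5' leader, coding sequence (CDS) and 3'UTR are used here. The anti-FLAG libraries held between 858733 and 1804732 counts and the input library 2193699. Levels are given as CPM, counts scaled to library size, with TMM factors for the anti-FLAG libraries and on all counts of a library where the input is compared. A gene in 1 class is called a feature below. All 7 markers of HEK 293T cells examined (NEFM, NEFL, INA, PAX2, VIM, KRT8 and KRT18) had 18 to 326 input counts, while of 6 markers of leukocytes, liver, blood, endothelium and muscle only PECAM1 (18 counts) exceeded 1. The third CR-1-31-B library stood apart from its group. Leaders made up 29.03% of its leader, CDS and 3'UTR counts over all genes, inside the DMSO range of 25.9% to 30.04%, while the highest CR-1-31-B library reached 41.4%. The leader values of the other histone genes and the sums are therefore also given without it, an alternative added after the data were seen for sums and shares. All 3 DMSO libraries were kept there, including the third, which had the lowest leader share of its group. No DMSO library of the same number was left out with it.

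Of the 80 histone genes, 72 had at least 1 count and 8, all replication-dependent, were at 0 in every library. Counts were found for 29 leaders (22 replication-dependent), 67 CDS (61) and 54 3'UTRs (47). HIST2H2BC, HIST2H2BA and HIST1H2APS1 had counts only in the pseudogene class, with 0 to 9 per library. H3F3A, which encodes the same H3.3 protein as H3F3B, had almost no counts, with at most 6 leader counts in a library and none in the CDS. The filter on low counts left 83 features of 44 genes: 22 leaders (16 replication-dependent), 42 CDS (36) and 19 3'UTRs (13). Because the copies of a histone family have nearly the same coding sequence and the rule for reads that match several places was not given in the sources used here, the split of CDS counts between copies is uncertain. For the same reason, few or no counts, as for H3F3A and the genes at 0, do not show that an mRNA was absent. Whether reads of these genes were lost in counting was not tested. Annotation also limits the classes, since 11 of the 22 replication-dependent genes with leader counts, and 21 of the 47 with 3'UTR counts, have no such part in the 1 GENCODE 29 model per gene used here.

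The first comparison asks how eIF4A crosslinking in vehicle-treated cells was distributed over histone mRNAs relative to input RNA. In CPM of all counts, replication-dependent histone mRNAs were recovered above input in all 3 transcript parts, and the other histone genes mainly in leaders. Summed replication-dependent 3'UTR counts stood at 379 ± 57.1 CPM (SD, n = 3) in DMSO against 75.7 CPM in input (95% Poisson interval 64.6 to 88.1, counting error only), a 5.00-fold excess, while all 3'UTR counts together were 1.31-fold above input. The 3'UTRs of the other 7 genes were 1.27-fold above input, close to the value for all 3'UTRs. Summed leaders were 7.94-fold above input for the replication-dependent genes and 10.2-fold for the others, against 3.002-fold for all leaders. In the CDS the excess was 2.01-fold for the replication-dependent genes, 1.42-fold for the others and 1.05-fold for all genes. The input gave much of its depth to noncoding RNA (39.5% of counts, against 13.3% to 17.3% in DMSO). Taken as shares of leader, CDS and 3'UTR counts alone, the replication-dependent folds were 5.66 for leaders, 1.44 for CDS and 3.59 for 3'UTRs. On that scale the folds of the other 7 genes were 7.27, 1.02 and 0.910, and those of all genes 2.16, 0.758 and 0.939. With 1 input library the comparison has no replicate check on that side and no test. That library is labelled replicate 2, and a ratio to the DMSO library of that number alone was not computed. In CPM of all counts, the lowest DMSO library held 2025 CPM in the replication-dependent CDS, against 1256 CPM in input, and 324 CPM in their 3'UTRs. Without DMSO replicate 2 the replication-dependent folds were 8.61 for leaders, 2.21 for CDS and 5.37 for 3'UTRs.

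**Figure D1:**
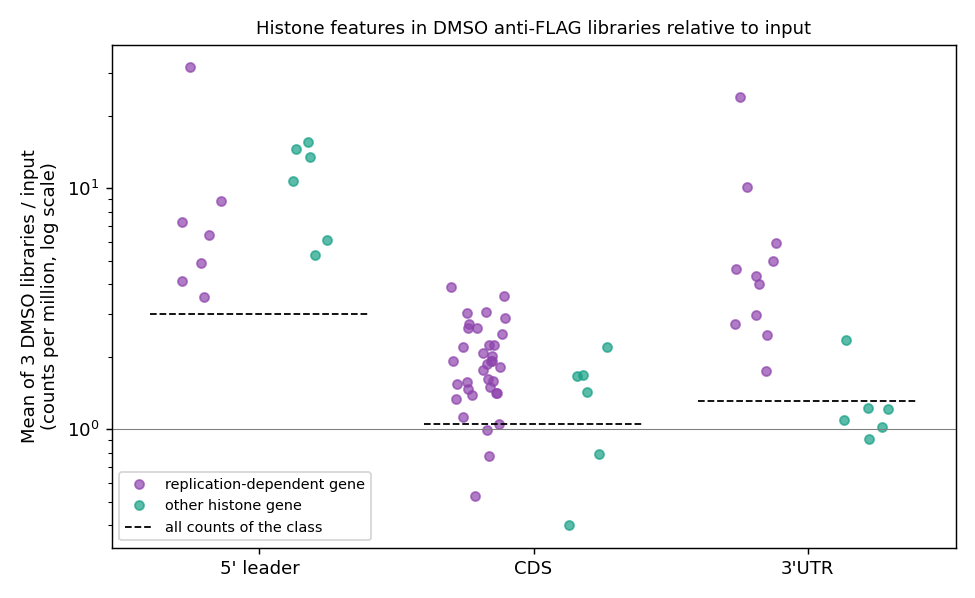
Mean of the 3 DMSO libraries divided by the input library, in CPM of all counts on a log axis, for each tested histone feature with more than 3 input counts (7 of 16 replication-dependent leaders, 35 of 36 CDS and 11 of 13 3'UTRs; all 6 features of the other genes in each class). Dashed lines give the same ratio for all counts of the class (3.002, 1.05 and 1.31); all 11 plotted replication-dependent 3'UTRs lie above the line, while the other genes' 3'UTRs lie around it.

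Gene by gene, all 3 DMSO libraries exceeded the input in 13 of 13 tested replication-dependent 3'UTRs, against a background of 24.9% of the 6712 tested 3'UTRs. In the other genes this held for 2 of 6 3'UTRs, those of H2AFX and H2AFV. Among the 11 replication-dependent 3'UTRs with more than 3 input counts, HIST1H3B, an H3 gene, had the highest ratio, with 43.8 ± 12.6 CPM in DMSO against 1.82 CPM in input (24.0-fold, on 4 input counts). HIST1H1E, a linker histone gene, followed with 32.2 ± 8.56 against 3.19 CPM (10.1-fold, on 7 input counts). HIST1H2BC, an H2B gene with 0 input counts, was at least 8.95-fold higher in DMSO, taken against a floor of 3 counts, and HIST1H2AE had 1 input count. HIST2H2BE, which encodes an H2B, was at 39.3 ± 11.9 against 13.2 CPM (2.97-fold). H2AFX, the DNA damage-responsive H2A variant and the only one of the 7 with the stem-loop pattern, was at 127 ± 33.0 against 53.8 CPM (2.35-fold), the highest of the 6 tested 3'UTRs of the other genes. The low-count filter looked at the 9 anti-FLAG libraries alone, which include DMSO, and left the input aside. A feature with few input counts could thus be tested only if it was covered well enough on the side being compared. The backgrounds passed the same filter but were not matched for count level. The shares above input and the highest ratios, here and for leaders and CDS below, are therefore descriptions only.

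For leaders, all 3 DMSO libraries exceeded the input in 14 of 16 replication-dependent and 6 of 6 other features, against a background of 77.1%. HIST1H2AG, an H2A gene, was at 57.8 ± 21.2 against 1.82 CPM (31.7-fold, on 4 input counts). H2AFV and H2AFZ, the H2A.Z genes, were at 85.5 ± 8.73 against 5.47 CPM (15.6-fold) and at 160 ± 63.3 against 10.9 CPM (14.6-fold). The leader of H1F0, the linker histone H1.0 of slowly dividing cells, was at 75.4 ± 42.5 against 12.3 CPM (6.13-fold).

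In the CDS the same held for 21 of 36 replication-dependent and 4 of 6 other features, against a background of 28.6%. Among the 35 replication-dependent CDS with more than 3 input counts, HIST4H4, an H4 gene outside the large clusters, had the highest ratio (3.89-fold), and HIST1H4C followed (3.58-fold). The H1F0 CDS was the clearest exception, with 16.1 ± 2.06 CPM in DMSO against 40.1 CPM in input (0.401-fold) and all 3 DMSO libraries below the input, which 21.8% of all tested CDS showed.

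The position of the counts on the transcript differed accordingly between the classes of histone gene. Of the replication-dependent counts in the input, 91.1% fell in the CDS (exact 95% interval 90.1 to 92.1), 3.37% in the leader and 5.49% in the 3'UTR. In DMSO the CDS held 77.3%, the leader 10.99% ± 2.63 (SD, n = 3) and the 3'UTR 11.8% ± 1.22. The families were not alike. In DMSO the leader held 20.7% of the H2B and 22.1% of the H2A counts, 10.3% of the H1 counts, but 2.20% of the H4 and 0.315% of the H3 counts. Any leader count was found for 3 of 6 H1, 8 of 18 H2A, 7 of 20 H2B, 2 of 14 H3 and 2 of 15 H4 genes. The annotation used for counting is not known here, and its part in these shares was not tested. H2B stood out by its 3'UTR share, 30.9% in DMSO and 15.8% in input. In the other 7 genes the leader held 41.4% ± 5.13 in DMSO, above the 27.9% of all genes, and 8.59% in input, below their 12.9%.

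The second question is whether silvestrol or CR-1-31-B changed eIF4A crosslinking on histone mRNAs. No histone feature passed the threshold (edgeR quasi-likelihood test, Benjamini-Hochberg adjusted p under 0.05 over 24713 features) in any of the 4 comparisons, where 0.255% of all features were called with silvestrol, 0.291% with CR-1-31-B, 0.49% with both rocaglates and none between the compounds. The lowest adjusted p among the 83 histone features was 0.197 with silvestrol, 0.314 with CR-1-31-B, 0.240 with both and 1.00 between the compounds. At an unadjusted p under 0.05, 8 features differed with silvestrol (9.64%, background 8.09%), 9 with CR-1-31-B (10.8%, background 8.86%), 11 with both (13.3%, background 10.0%) and 4 between the compounds (4.82%, background 2.46%). Treated and DMSO libraries did not overlap in 12 features with silvestrol (14.5%, background 15.0%), 11 with CR-1-31-B (13.3%, background 14.7%) and 3 with both (3.61%, background 5.91%). The shares against DMSO lie near the background, while the unadjusted share between the compounds was above it (4.82% against 2.46%, on 4 features). The background pools all classes, which differ. With silvestrol, 1245 of 7122 leaders and 213 of 6712 3'UTRs had an unadjusted p under 0.05 (edgeR).

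Libraries of the same number correlated weakly in their deviations from group means, and the number was therefore also fitted as a block. In that fit 3 histone features rose with silvestrol (3.61%, where 1.28% of all features were called and 1.25% rose), 1 rose with both rocaglates (1 of 83, where 2.04% were called and 1.9% rose) and none passed with CR-1-31-B (background 1.48%). The 3 were the leaders of H1F0 and H2AFY, in a class where 3.71% of leaders rose with silvestrol, and the 3'UTR of HIST1H4C, in a class where 0.0298% did. The leader that rose with both rocaglates was that of H1F0, in a class where 5.38% of leaders did. Without the third CR-1-31-B library the blocked fit called 2 histone features with CR-1-31-B (2.25%, where 1.78% of all features were called), the leaders of H2AFY and H2AFZ. Without the first CR-1-31-B library it called 1 (1.12%, background 0.514%), and without silvestrol replicate 2 it called 4 (4.44%, background 2.42%). Neither compound lowered a histone feature past the threshold, with or without the block. In simulated counts the fit without the block called 19 of 50 features with a true log2 fold change of -2, so falls of this size can be missed.

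The leader of H1F0 held 90.05, 127 and 30.9 CPM in DMSO, 275, 329 and 141 CPM with silvestrol and 136, 317 and 73.0 CPM with CR-1-31-B, in the order of the library numbers. Every silvestrol library exceeded every DMSO library, whereas the CR-1-31-B libraries overlapped DMSO, although each exceeded the DMSO library of its own number. The log2 fold change with silvestrol was 1.58 ± 0.50 (SE; edgeR adjusted p = 0.246) without and 1.71 with the block (edgeR adjusted p = 0.00226), and with CR-1-31-B it was 1.08 ± 0.50 (0.529 without and 0.0687 with the block). For both rocaglates it was 1.33 ± 0.45 (edgeR adjusted p = 0.240 without and 0.00524 with the block). The blocked silvestrol call held in 8 of 9 fits that each left out 1 library, and without silvestrol replicate 1 the edgeR adjusted p was 0.0515. The joint call was lost without any 1 of the 3 DMSO libraries (edgeR adjusted p = 0.0568, 0.0819 and 0.0710). Over the 3 parts of the H1F0 transcript, the leader share was 39.1% ± 13.2 in DMSO, 65.1% ± 3.38 under silvestrol and 52.2% ± 13.5 under CR-1-31-B (59.95% without the third library), and 9.18% in input. The H1F0 3'UTR overlapped DMSO (86.1, 123 and 83.6 CPM in DMSO; 101, 109 and 76.4 CPM with silvestrol; log2 fold change -0.03 ± 0.37).

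H2AFY encodes macroH2A1, a large H2A variant of repressed chromatin. Its leader held 135, 75.4 and 74.4 CPM in DMSO, 302, 136 and 260 CPM with silvestrol and 265, 172 and 70.7 CPM with CR-1-31-B. The silvestrol libraries all lay above DMSO, the closest pair by a small margin, and the third CR-1-31-B library lay below every DMSO library. The log2 fold change with silvestrol was 1.29 ± 0.43 (edgeR adjusted p = 0.301 without and 0.0417 with the block), and the blocked call held in 3 of 9 fits that left out 1 library. It was lost without any 1 DMSO library, without silvestrol replicate 1 or 3 and without CR-1-31-B replicate 1 (edgeR adjusted p = 0.0733 to 0.488). With CR-1-31-B it was 0.84 ± 0.43 (edgeR adjusted p = 0.610), and 1.21 without the third library (edgeR adjusted p = 0.204). The leader share of H2AFY was 37.1% ± 6.29 in DMSO, 60.7% ± 13.03 under silvestrol and 52.2% ± 17.8 under CR-1-31-B (61.6% without the third library).

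With silvestrol the other tested leaders of this group gave smaller log2 fold changes than those of H1F0 and H2AFY. With CR-1-31-B the value of H2AFZ exceeded that of H2AFY. None of these other leaders passed the threshold with all libraries included, with or without the block. H2AFZ had the most leader counts of all histone genes, with 239, 169 and 111 CPM in DMSO, 381, 171 and 257 CPM with silvestrol and 557, 312 and 185 CPM with CR-1-31-B. Its groups overlapped in both comparisons (log2 fold change 0.64 ± 0.41 and 1.02 ± 0.41; edgeR adjusted p = 0.764 and 0.417). H2AFV held 80.3, 107 and 92.7 CPM in DMSO, 173, 210 and 112 CPM with silvestrol, all above DMSO, and 138, 156 and 32.4 CPM with CR-1-31-B (log2 fold change 0.82 ± 0.43 and 0.23 ± 0.43). H3F3B, the H3.3 gene with more counts here, held 70.5, 39.3 and 38.9 CPM in DMSO, 99.4, 67.1 and 44.6 CPM with silvestrol and 70.7, 85.6 and 16.2 CPM with CR-1-31-B. H2AFX was the only one of the 6 tested leaders of this group with a lower silvestrol estimate (65.6, 72.2 and 24.0 CPM in DMSO; 31.3, 52.3 and 11.5 CPM with silvestrol; log2 fold change -0.76 ± 0.53), and its groups overlapped. Without the third CR-1-31-B library the log2 fold changes with CR-1-31-B were 1.46 for the leader of H1F0, 1.34 for H2AFZ, 0.66 for H2AFV and H3F3B and 0.51 for H2AFX. None of them passed the threshold without the block, while the blocked fit without that library called H2AFZ, as given above. The longest purine run of H2AFX, with 3 bases, was the shortest in this group. A relation between run length and fold change was not tested, and the H2AFX estimate with CR-1-31-B was positive.

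**Figure D2:**
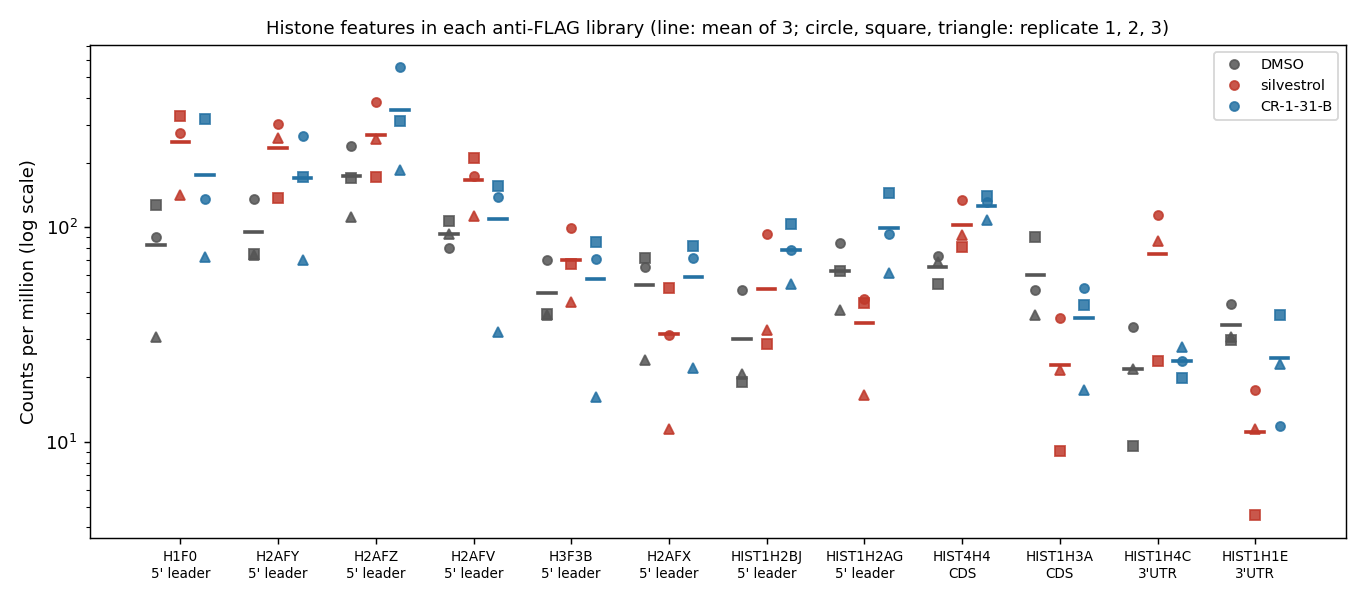
CPM (log axis) of 12 histone features in each of the 9 anti-FLAG libraries, with the mean of 3 as a line. The silvestrol points of H1F0, H2AFY and H2AFV leaders lie above all DMSO points, and the third CR-1-31-B library (blue triangle) is the lowest of its group in all 8 leaders shown.

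Summed over the 7 other genes, leaders held 684, 590.1 and 372 CPM in DMSO, 1266, 966 and 827 CPM with silvestrol and 1242, 1124 and 399.7 CPM with CR-1-31-B. Silvestrol libraries did not overlap DMSO (1.86-fold higher on the mean), and CR-1-31-B libraries overlapped it through the third library (1.68-fold, and 2.16-fold without that library). The 2.16-fold value still included the third DMSO library, the lowest of its group. As a share of the counts of these genes, the leader held 59.1% ± 2.58 under silvestrol and 54.7% ± 12.8 under CR-1-31-B (61.98% without the third library), after 41.4% ± 5.13 in DMSO. All genes together moved the same way, from 27.9% ± 2.07 to 37.9% ± 2.17 and 36.2% ± 6.40 (39.8% without that library). Relative to all leader counts, the 7 genes took 0.220% in DMSO, 0.297% under silvestrol and 0.271% under CR-1-31-B. These sums have no test. The median log2 fold change of the 6 tested leaders was 0.73 under silvestrol and 0.53 under CR-1-31-B, beside 0.40 and 0.35 over all 7122 tested leaders.

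**Figure D3:**
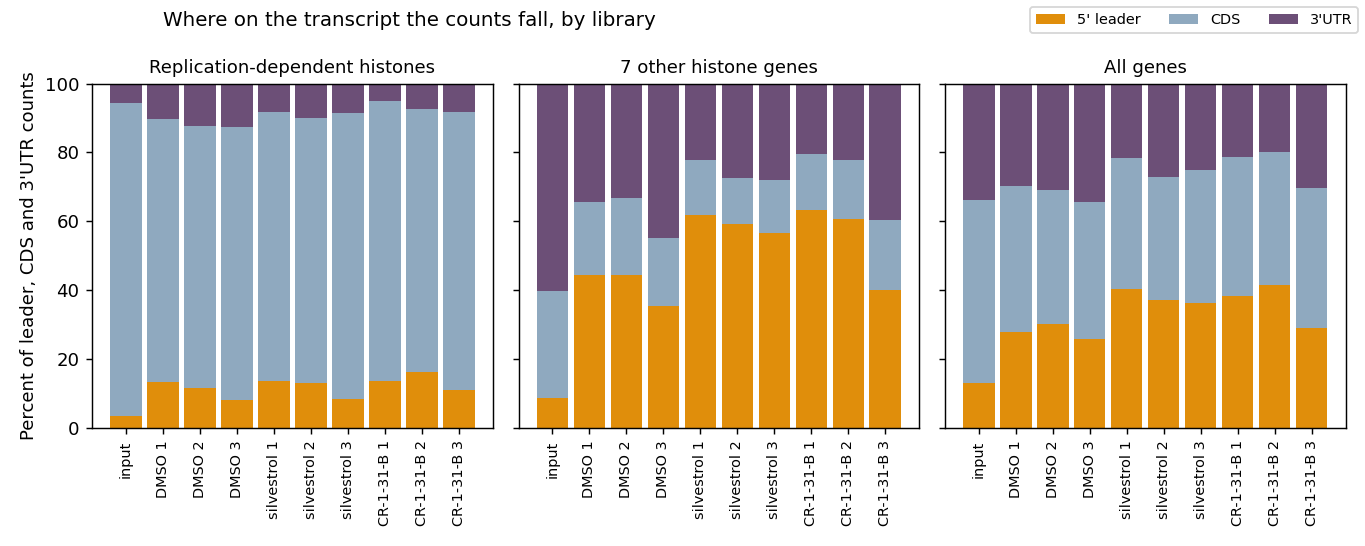
Percent of leader, CDS and 3'UTR counts that fell in each part, for the input and each anti-FLAG library, in replication-dependent histone genes, the other 7 histone genes and all genes. The leader share of the other 7 genes was 35.5% to 44.4% in DMSO and 56.6% to 61.8% with silvestrol, while that of replication-dependent genes was 8.12% to 13.3% and 8.44% to 13.7%.

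The leader share of the replication-dependent genes moved less. It was 13.3%, 11.6% and 8.12% in DMSO, 13.7%, 13.1% and 8.44% under silvestrol and 13.6%, 16.2% and 10.9% under CR-1-31-B, in the order of the library numbers. The groups overlapped, while each treated library lay above the DMSO library of its number, and the mean differences were not tested. Their summed leaders held 588, 350 and 259 CPM in DMSO, 643, 313 and 259 CPM with silvestrol and 611, 574 and 391.6 CPM with CR-1-31-B, and the groups overlapped. Each CR-1-31-B library exceeded the DMSO library of its number (1.32-fold on the mean). Without the third CR-1-31-B library the ratio was 1.48-fold, with the third DMSO library, the lowest of its group, still included. With silvestrol 7 of 16 tested leaders had a log2 fold change above 0 (median -0.11), where 70.4% of all leaders did (median 0.40). With CR-1-31-B the count was 11 of 16 (median 0.46), against 67.6% of all leaders (median 0.35). As a share of all leader counts, the replication-dependent leaders took 0.161% in DMSO, 0.116% under silvestrol and 0.162% under CR-1-31-B. Leader counts came from 22 of the 73 replication-dependent genes and from all 7 others. The difference between the 2 classes of histone gene was not tested.

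Single replication-dependent leaders went in both directions. The leader of HIST1H1E, which encodes linker histone H1.4 and had the most leader counts in this class, held 107, 65.8 and 34.3 CPM in DMSO, 91.0, 61.4 and 52.2 CPM with silvestrol and 77.4, 41.5 and 67.2 CPM with CR-1-31-B, with full overlap. HIST1H2BJ, an H2B gene, held 50.9, 19.1 and 20.6 CPM in DMSO, 93.4, 28.4 and 33.1 CPM with silvestrol and 78.0, 103 and 54.5 CPM with CR-1-31-B. All CR-1-31-B libraries lay above DMSO (log2 fold change 1.37 ± 0.49; edgeR adjusted p = 0.320 without and 0.0579 with the block). HIST1H2AG held 84.2, 62.6 and 41.2 CPM in DMSO, 46.4, 44.4 and 16.6 CPM with silvestrol and 93.2, 144 and 61.4 CPM with CR-1-31-B, and overlapped DMSO in both. HIST1H1C, the gene of H1.2, varied within each group (47.0, 26.5 and 11.4 CPM in DMSO; 111, 15.9 and 40.8 CPM with silvestrol; 83.3, 25.1 and 18.5 CPM with CR-1-31-B).

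Coding sequences carried most of the replication-dependent counts, and their sums overlapped between all groups. Their sum was 2736 ± 565 CPM in DMSO, 2678 ± 918 CPM under silvestrol and 3088 ± 504 CPM under CR-1-31-B (SD, n = 3), and the median log2 fold change of the 36 tested CDS was -0.26 under silvestrol and 0.00 under CR-1-31-B, beside -0.12 and -0.03 over all CDS. HIST1H1E (532, 417 and 435 CPM in DMSO; 645, 382 and 456 CPM with silvestrol; 562, 452 and 536 CPM with CR-1-31-B) and HIST1H1C (401, 259 and 267 CPM; 628, 356 and 387 CPM; 557, 535 and 485 CPM) had the most counts. CR-1-31-B libraries of HIST1H1C all lay above DMSO (log2 fold change 0.77 ± 0.34; edgeR adjusted p = 0.497), and those of HIST1H1E overlapped it. The H4 gene HIST1H4C (234, 184 and 208 CPM in DMSO; 373, 154 and 265 CPM; 397, 174 and 226 CPM) and the H3 gene HIST1H3B (175, 179 and 121 CPM; 175, 72.8 and 90.5 CPM; 181, 127 and 136 CPM) overlapped in both comparisons.

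HIST4H4 was higher in every treated library than in any DMSO library, with 73.4, 54.1 and 68.7 CPM in DMSO, 133, 80.8 and 91.7 CPM with silvestrol and 131, 139 and 108 CPM with CR-1-31-B. Its log2 fold change was 0.64 ± 0.35 under silvestrol and 0.95 ± 0.35 under CR-1-31-B (edgeR adjusted p = 0.682 and 0.344). HIST1H3A, an H3 gene, was lower in every silvestrol library (50.9, 90.2 and 38.9 CPM in DMSO; 37.9, 9.10 and 21.7 CPM; log2 fold change -1.34 ± 0.51, edgeR adjusted p = 0.425). The CDS of H3F3B was lower in every CR-1-31-B library (13.7, 31.8 and 19.5 CPM in DMSO; 7.93, 6.05 and 3.48 CPM; log2 fold change -1.84 ± 0.65, edgeR adjusted p = 0.314) and at 19.3, 11.4 and 34.4 CPM with silvestrol (-0.01 ± 0.60), which spans the DMSO values. The H1F0 CDS held 18.6, 19.1 and 14.9 CPM in DMSO, 39.8, 46.6 and 12.7 CPM with silvestrol and 21.2, 43.2 and 31.3 CPM with CR-1-31-B, the last without overlap (log2 fold change 0.92 ± 0.52 and 0.85 ± 0.52). That of H2AFV also lay above DMSO with CR-1-31-B, on few counts (20.6, 0 and 5.72 CPM in DMSO; 25.1, 30.3 and 20.9 CPM). The CDS of H2AFZ, H2AFX and H2AFY overlapped DMSO with both compounds. None of these passed the threshold. The H3F3B CDS also rested on few counts, 152 over the 9 anti-FLAG libraries together.

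In 3'UTRs the replication-dependent genes were lower on average with both compounds. Their sum was 459, 369 and 404 CPM in DMSO, 387, 238 and 265 CPM with silvestrol and 226, 257 and 299 CPM with CR-1-31-B. The CR-1-31-B libraries all lay below DMSO (0.634-fold, and 0.588-fold without the third library), and the silvestrol libraries overlapped it (0.722-fold). Of 13 tested 3'UTRs, 11 had a log2 fold change below 0 with each compound, and the medians were -0.78 and -0.67, beside -0.26 and -0.27 over all 6712 tested 3'UTRs. The 2 comparisons share their DMSO libraries and are no independent evidence of each other. All 3'UTRs together made up 31.6% ± 2.41 of leader, CDS and 3'UTR counts in DMSO, 24.7% ± 2.77 under silvestrol and 23.8% ± 5.62 under CR-1-31-B. Relative to all 3'UTR counts the replication-dependent 3'UTRs took 0.147% in DMSO, 0.137% under silvestrol and 0.125% under CR-1-31-B, and on this scale the log2 ratio of CR-1-31-B to DMSO was -0.24, against -0.66 in CPM. A lower count cannot be told apart from fewer cells in S phase or from less histone mRNA per cell, since the files used here hold no RNA level per treatment.

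**Figure D4:**
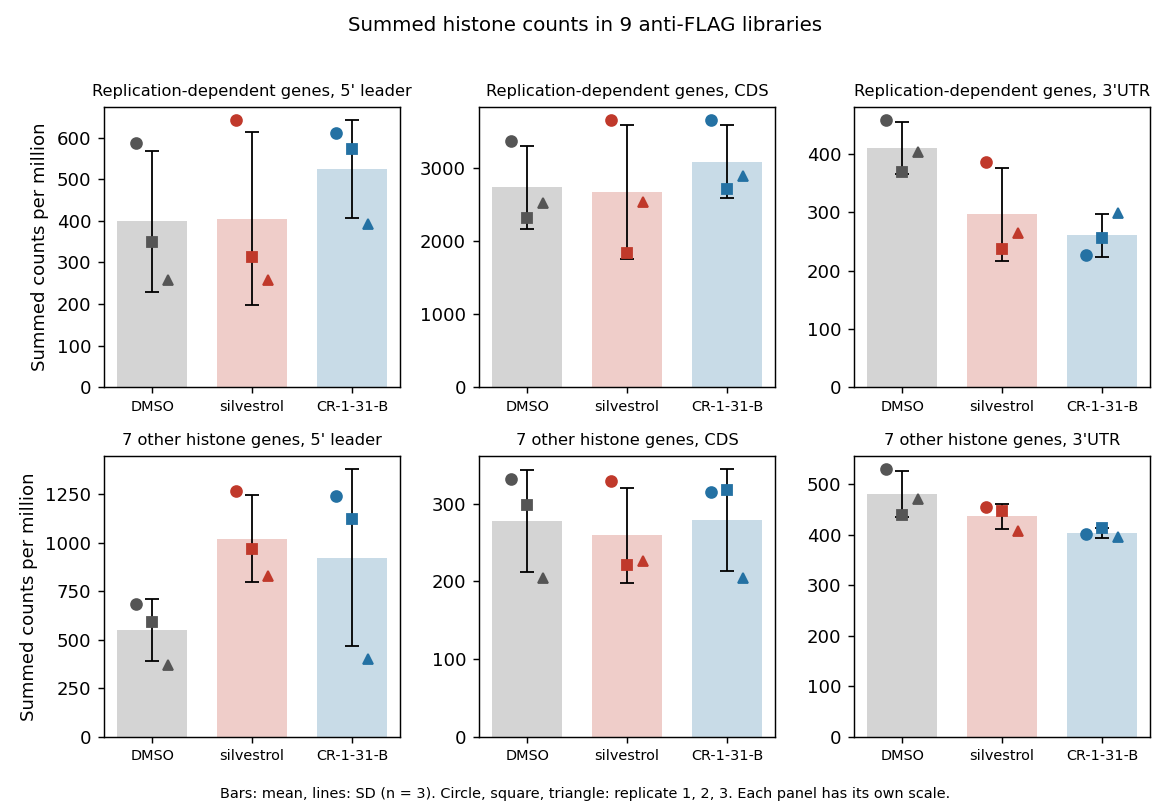
Summed CPM of the replication-dependent and the other 7 histone genes in each transcript part (bars, mean; lines, SD; points, the 3 libraries of a group). In the 3'UTR of replication-dependent genes the CR-1-31-B libraries (226 to 299 CPM) lie below the DMSO libraries (369 to 459 CPM), and in the leaders of the other 7 genes the silvestrol libraries (827 to 1266 CPM) lie above them (372 to 684 CPM).

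HIST1H4C went against the other 3'UTRs. It held 34.3, 9.55 and 21.8 CPM in DMSO, 114, 23.9 and 86.6 CPM with silvestrol and 23.8, 19.9 and 27.8 CPM with CR-1-31-B. Silvestrol replicates 1 and 3 were high, and replicate 2 lay inside the DMSO range. The log2 fold change with silvestrol was 1.78 ± 0.53 (edgeR adjusted p = 0.197 without and 0.0398 with the block), and without that library the adjusted p was 0.0403 without the block. The blocked call held in 3 of 9 fits that left out 1 library, and was lost without the same 6 libraries as for H2AFY (edgeR adjusted p = 0.0557 to 0.499). Only 2 of the 6712 tested 3'UTRs rose with silvestrol in the blocked fit. HIST1H4C had no leader counts, and the 3'UTR share of its counts was 9.06% ± 3.93 in DMSO, 20.5% ± 6.15 under silvestrol and 8.96% ± 2.89 under CR-1-31-B.

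Other 3'UTRs were lower. HIST1H1E held 44.0, 29.7 and 30.9 CPM in DMSO and 17.5, 4.55 and 11.5 CPM with silvestrol, without overlap (log2 fold change -1.59 ± 0.57, edgeR adjusted p = 0.366), and 11.9, 38.9 and 23.2 CPM with CR-1-31-B. HIST1H3B held 49.9, 61.6 and 32.1 CPM in DMSO, 26.5, 44.4 and 11.5 CPM with silvestrol and 19.8, 24.2 and 31.3 CPM with CR-1-31-B, the last without overlap (log2 fold change -0.94 ± 0.48, edgeR adjusted p = 0.613). HIST2H2BE held 27.4, 56.3 and 45.8 CPM in DMSO, 34.3, 18.2 and 28.0 CPM with silvestrol and 31.7, 20.8 and 33.6 CPM with CR-1-31-B. Among the other genes, H2AFV was lower in every treated library (80.3, 78.5 and 60.7 CPM in DMSO; 59.0, 51.2 and 51.0 CPM; 36.4, 19.9 and 51.0 CPM), with a log2 fold change of -1.04 ± 0.40 for CR-1-31-B (edgeR adjusted p = 0.381). H3F3B held 41.1, 61.6 and 22.9 CPM in DMSO, 23.5, 19.3 and 15.3 CPM with silvestrol and 23.8, 12.97 and 17.4 CPM with CR-1-31-B (log2 fold change -1.09 ± 0.50 and -1.20 ± 0.50), with overlap through the third DMSO library. H2AFZ had few 3'UTR counts (2.12 to 43.1 CPM) and overlapped. The 3'UTRs of H2AFX and H2AFY overlapped DMSO with both compounds and had log2 fold changes between -0.24 and 0.05.

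**Figure D5:**
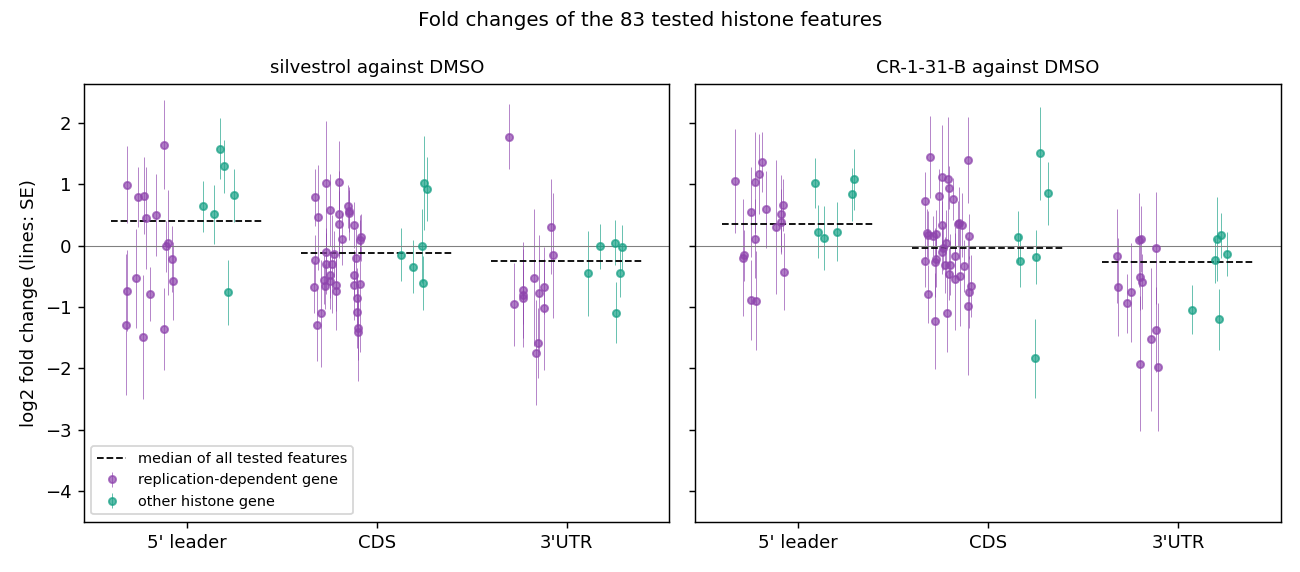
Log2 fold change with its SE for the 83 tested histone features, with silvestrol (left) and CR-1-31-B (right) against DMSO, by transcript part. Dashed lines are the medians of all tested features of the class (0.40, -0.12 and -0.26 with silvestrol; 0.35, -0.03 and -0.27 with CR-1-31-B); 11 of 13 replication-dependent 3'UTRs lie below 0 in each panel, and HIST1H4C is the highest 3'UTR point on the left.

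The 2 rocaglates were compared directly at the same dose and time. Over 83 features, 0 passed the threshold (edgeR), 0 passed it with the block (background 0.00405%) and 0 were called by DESeq2. An unadjusted p under 0.05 (edgeR) was found for 4 (4.82%, background 2.46%). The difference (CR-1-31-B minus silvestrol, log2) was -0.50 for the H1F0 leader (95% interval -1.50 to 0.50) and -0.46 for the H2AFY leader (-1.33 to 0.42). The lowest unadjusted p belonged to the H3F3B CDS (-1.83, -3.17 to -0.49), the HIST1H4C 3'UTR (-1.67, -2.74 to -0.59) and the HIST1H2AG leader (1.45, 0.55 to 2.36), each with an edgeR adjusted p of 1.00 over all features. The value of the H3F3B CDS rests on few counts. Libraries of the 2 compounds did not overlap in 4 of 83 features (4.82%, background 7.73%).

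Genes that act on histone mRNA or protein were examined beside the histones. Of 16 genes listed for histone mRNA processing, transcription and translation (SLBP, NPAT, LSM10, CPSF3 and others), 12 leaders, 15 CDS and 8 3'UTRs were tested and none passed the threshold in a comparison with DMSO, with or without the block. Of 17 histone chaperones and assembly factors, 17 leaders, 16 CDS and 12 3'UTRs were tested, and 1 leader, CHAF1A, rose, where 0.857% of all leaders rose with silvestrol and 0.8% with CR-1-31-B. CHAF1A encodes the large subunit of chromatin assembly factor 1, which deposits H3 and H4 behind the replication fork. Its leader held 21.5, 41.4 and 33.2 CPM in DMSO, 161, 102 and 159 CPM with silvestrol and 150, 209 and 110 CPM with CR-1-31-B. No treated library overlapped DMSO, and the log2 fold change was 2.14 ± 0.39 with silvestrol (edgeR adjusted p = 0.0170) and 2.29 ± 0.39 with CR-1-31-B (edgeR adjusted p = 0.00893). The block added the leaders of RBBP7, a histone-binding protein (log2 fold change 1.49 with silvestrol, edgeR adjusted p = 0.0045), and of SUPT16H, a subunit of the FACT chaperone (1.22, edgeR adjusted p = 0.0479), where 3.71% of all leaders rose with silvestrol. Of 18 genes high in S phase, 12 leaders, 15 CDS and 11 3'UTRs were tested and 0 passed the threshold. The block added the leaders of MCM7 with silvestrol (1.51, edgeR adjusted p = 0.00705) and of CDC6 with CR-1-31-B (1.76, edgeR adjusted p = 0.0136), and that of E2F1 for both rocaglates (1.29, edgeR adjusted p = 0.0489). In the blocked fit 3.59% of all leaders rose with CR-1-31-B and 5.38% with both. Of 5 histone variant genes outside the symbol rule, 0 of 7 tested features passed. The CDS medians of the S phase genes were -0.28 under silvestrol and 0.03 under CR-1-31-B, beside -0.26 and 0.00 for the replication-dependent histones.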

How the data were processed

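The authors deposited raw read counts per gene symbol and transcript class, 1 file per library, per the file headers. The submitters' processing notes name cutadapt and Bowtie 1.1. For genome build, annotation, duplicates, strand and counting rule, nothing is given in the sources used here. Each file's 1 blank line was left out.

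The 9 anti-FLAG libraries were fitted together with edgeR 4.0.16 (R 4.3.3): filterByExpr by group, TMM factors over tested features, quasi-likelihood tests and Benjamini-Hochberg adjustment over 24713 features. Alternatives were other scalings, classes fitted alone, no filter, DESeq2 1.42.0, a replicate block, each library left out, and sums on other denominators. Same-number libraries correlated in their deviations from group means at 0.102 to 0.263 (9 pairs; prior count 2, and from 0.0908 with a prior count of 0.5, just under the 0.1 required), other pairs at -0.203 to 0.0163, so the numbers, which come from the labels, were treated as pairs. Because deviations were taken from group means, negative values for unlike numbers follow from positive ones for like numbers and are no separate support. No 2 libraries of a group repeated each other (chi-square per degree of freedom 4.29 to 9.96). The fit without the block was tested on simulated counts, with changed features drawn from those with higher counts. It called 37 of 50 features with a true log2 fold change of 2 and 19 of 50 with -2. At 3 and -3 it called 49 of 50 and 37 of 49, and of 21485 unchanged features it called 6. Intervals of the input library cover counting error only. Those of log2 fold changes come from the edgeR fit and include the spread between libraries.

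Named were features called with or without the block, the 4 replication-dependent features with the highest mean CPM per class, the 7 other genes, and the 2 features of lowest p in each direction per compound. HIST1H2BD, HIST1H2BC and H2AFX sites were picked for display. The members and lists were chosen with earlier results of these data known. Of the 80 symbols, 77 matched a GENCODE 29 coding gene and 75 a RefSeq gene. Protein sequences were not used here.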

Additional observations from a re-analysis of the deposited data

How the results depend on the processing

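No histone feature passed the threshold in the comparison of the 2 compounds under any alternative run. In the others, fits with RLE factors, with total counts only, by class, by DESeq2 and on 2 groups alone called 0 as well. With silvestrol the count was 1 without the filter on low counts (H1F0 leader), 3 with the replicate block and 0 to 1 when 1 library was left out (1 without silvestrol replicate 2, the HIST1H4C 3'UTR). For both rocaglates it was 1 without the filter and 1 with the replicate block. The block changed no other histone call, and with CR-1-31-B it gave 0. Combining the block with 1 left-out library, an alternative added after the data were seen, gave 0 to 3 calls with silvestrol, 0 to 4 with CR-1-31-B and 0 to 5 for both (62 to 540, 43 to 662 and 60 to 971 over all features), with the highest CR-1-31-B and joint counts without silvestrol replicate 2. None of the 10 log2 fold changes recomputed under every alternative changed direction, while 31 histone features had no adjusted p from DESeq2. As a percent of the class total, the log2 ratio of summed replication-dependent 3'UTRs between CR-1-31-B and DMSO was -0.24 in place of -0.66. The DMSO excess over input was 1.44-fold in the CDS and 3.59-fold in the 3'UTR when only leader, CDS and 3'UTR counts were used, and 3.80-fold in the 3'UTR with TMM factors over all 10 libraries. The other replication-dependent sums moved by less than 1 SD. For the other 7 genes the excess went from 1.42-fold to 1.02-fold in the CDS and from 1.27-fold to 0.910-fold in the 3'UTR. Over all features, edgeR called 63 with silvestrol, 72 with CR-1-31-B and 121 with both, against 316, 365 and 505 with the block and 308, 335 and 531 by DESeq2. Depth limits single genes, since 9 of 16 tested replication-dependent leaders had 3 or fewer input counts.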
